A study of Mus musculus with 9 samples.

Results

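Follicular B cells homozygous for an IgE-type heavy chain allele were compared with follicular B cells homozygous for an IgG1-type allele. The comparison takes the 3 arrays titled for the Igh epsilon allele and the 3 titled for the Igh gamma1 allele, 6 of the 9 single-colour arrays of the series, chosen by genotype label alone. The cells were sorted from the spleens of mice aged 6 to 12 weeks, homozygous as Ighε/ε or Ighγ1/γ1 or of genotype Ighwt, described as polyclonal and with no treatment named beyond routine housing. Every genotype label, wild-type included, also carries VJk5. Neither that element nor the construction of the alleles is described in the labels. The 3 Ighwt arrays are the reference for the unaltered locus. The replicates are called independent without mention of separate animals, and p-values thus reflect sample-to-sample spread that may be technical. The question the series title poses is how the isotype of the B cell receptor and its dose bear on B cell fate.

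A B cell receptor is a membrane immunoglobulin held together with the signalling chains CD79A and CD79B. Naive B cells of wild-type mice carry it as IgM and IgD, which are made from the first constant region genes of the heavy chain locus, while γ1 and ε encode the constant regions of IgG1 and IgE and are normally joined to the variable region only after class switching. Follicular B cells recirculate through the spleen and lymph nodes, depend on receptor signals for survival, and are set apart by surface markers from the marginal zone B cells that stay at the edge of the follicle.

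All 7 B cell markers with a probe set lay above the array median on all 9 arrays, and their mean level was 9.04 to 9.17 in ε/ε and 8.80 to 9.06 in γ1/γ1. The 6 T cell and 5 neutrophil markers averaged at most 3.20 and 2.97 on these 6 arrays, below the array medians of 3.53 to 3.69. The markers of plasma cells averaged 4.21 to 4.77, of NK cells 3.84 to 4.05 and of dendritic cells 3.71 to 4.08, above those medians. These means rest on few markers. Only 3 of 5 plasma cell, 1 of 4 NK cell and 1 of 4 dendritic cell markers lay above the array median on all 9 arrays. Of the 3 ε/ε arrays, replicate 1 held the highest mean of 10 macrophage markers, 6.97, against 4.72 and 4.04 on the others and 3.63 to 3.94 in γ1/γ1. Xist, the RNA that silences an X chromosome in females, was low in replicate 1 of both genotypes (5.25 and 4.53, against at least 10.37 on the other 7 arrays), so the ε/ε and γ1/γ1 groups each held 1 such array and wild-type none. The Y-linked Kdm5d and Eif2s3y read 5.90 and 7.40 on ε/ε replicate 1 and 6.08 and 7.99 on γ1/γ1 replicate 1. Wild-type read 2.82 to 3.09 and 2.93 to 3.44. Replicates 2 and 3 of ε/ε read 3.26 and 4.50 for Kdm5d and 5.40 and 3.64 for Eif2s3y. Those of γ1/γ1 read 2.22 and 2.59, and 3.52 and 2.75. The labels give no sex. Array-to-array correlation (Pearson's r, across genes) was 0.929 to 0.958 within ε/ε, 0.948 to 0.968 within γ1/γ1 and 0.888 to 0.953 between them. Genes are not independent replicates, so these are descriptions.

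Of 12170 genes tested, 324 differed between the 2 isotypes at an adjusted p under 0.05 (2.66%; limma with Benjamini-Hochberg adjustment, all 9 arrays in the fit). In ε/ε cells 124 were higher (1.02%) and 200 lower (1.64%). Of the 324, 173 differed by at least 2-fold (1.42%), 75 of them higher and 98 lower, and the smallest difference that passed was 0.55 on the log2 scale. In all 324 the 3 ε/ε values lay to 1 side of the 3 γ1/γ1 values, which was so for 21.1% of all genes tested. The split of higher and lower calls moved with the scaling: 38.3% of the calls were higher in ε/ε as deposited, 53.4% of 380 calls after quantile normalization and 54.5% of 277 after centring each array on its median. These scalings shifted the median difference of all genes from 0.00 to 0.05 and 0.06. With only the 6 arrays in the fit 56 genes passed, 22 higher and 34 lower. The count was 196 without ε/ε replicate 1, 140, 160 and 122 without γ1/γ1 replicates 1, 2 and 3, and 203, 213 and 167 without wild-type replicates 1, 2 and 3, which enter through the shared variance.

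**Figure D1:**
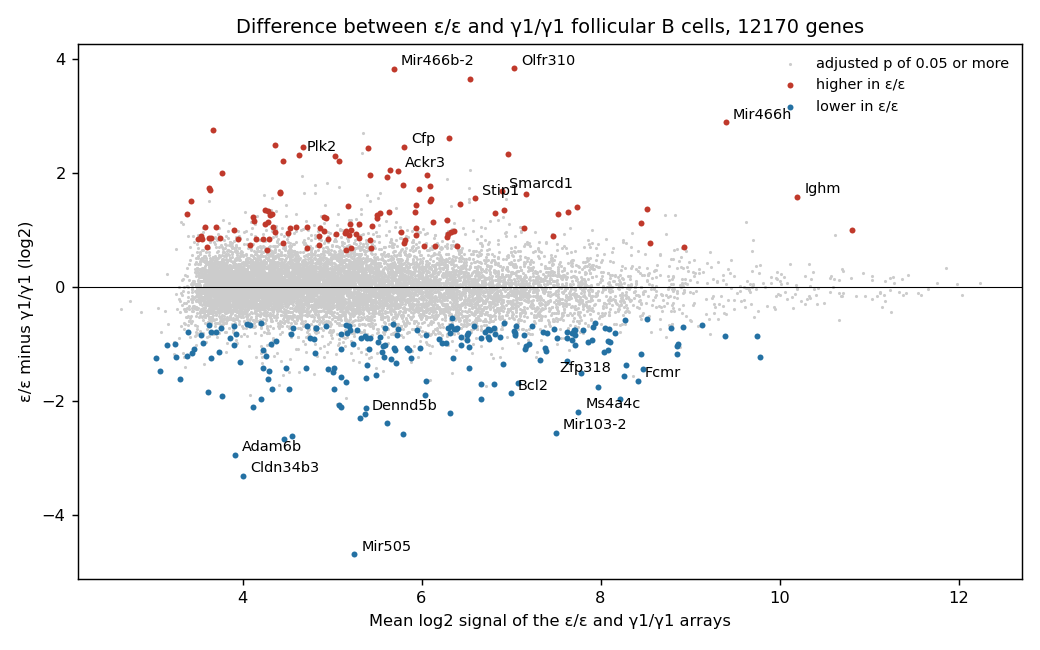
The plot of difference by level shows, for each of the 12170 genes, the mean log2 signal of the 6 arrays on the x axis and the ε/ε minus γ1/γ1 difference in log2 units on the y axis, with the 124 genes higher in ε/ε in red, the 200 lower ones in blue and the rest in grey. The lowest point is Mir505 at -4.70 and the highest Olfr310 at 3.83.

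The wild-type arrays place the 2 mutants. In 294 of the 324 genes (90.7%) the wild-type mean lay nearer to γ1/γ1 than to ε/ε, against 66% of all genes tested. Against wild-type, 772 genes passed in ε/ε (6.34%) and 5 in γ1/γ1 (0.0411%). These comparisons share arrays with each other and with the one between isotypes. The 30 genes for which wild-type lay nearer to ε/ε include Ighm (by its brightest probe set and not by all), Adam6b, St8sia6, Cd36, Jhy and Mir16-2. Their values are given with their groups.

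Ighm, the μ constant region gene of IgM, was higher in ε/ε than in γ1/γ1 through its brightest probe set. That probe set read 11.03, 10.91 and 11.01 in ε/ε, 8.80, 9.62 and 9.81 in γ1/γ1, and 11.27, 11.56 and 11.27 in wild-type. All 3 γ1/γ1 arrays lay at least 1.1 below the lowest ε/ε array. The difference was 1.57 (SE 0.24, 2.98-fold, limma adjusted p = 0.00990) and held with each of the 9 arrays left out. Another of its 7 probe sets gave the opposite order, reading 3.87, 4.06 and 3.42 in ε/ε and 5.71, 5.73 and 4.97 in γ1/γ1 (difference -1.69, adjusted p = 0.0247 over all probe sets). Yet another, bright in wild-type at 10.62 to 11.01, was near the array medians in both mutants, at 4.27 to 4.54 in ε/ε and 3.07 to 5.01 in γ1/γ1. The 7 probe sets therefore do not give a single direction for Ighm, and their mean differed by -0.27 (adjusted p = 0.392). Ighg3, the only other constant region gene tested, gave -0.39 (SE 0.41, adjusted p = 0.631).

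The partners of the receptor did not pass. Cd79a read 10.09, 10.22 and 10.02 in ε/ε against 8.86, 9.57 and 9.47 in γ1/γ1, without overlap, but with a difference of 0.81 (SE 0.29) and an adjusted p of 0.163. Cd79b differed by 0.19 (SE 0.15, adjusted p = 0.509). Of 31 genes of positive receptor signalling, 1 passed: Vav1, a guanine nucleotide exchange factor downstream of antigen receptors, read 6.81, 6.93 and 6.44 in ε/ε and 5.66, 6.16 and 5.73 in γ1/γ1 (0.87, SE 0.20, adjusted p = 0.0480). The call on Vav1 was lost when any of 7 arrays was left out, the exceptions being ε/ε replicate 3 and γ1/γ1 replicate 2. The share of that list was 3.23%, beside 2.66% of all genes, and its median was 0.18, beside 0.00 for all genes tested. None of 32 receptor inhibitors passed, with a median of 0.04. The smallest p values among them belonged to Dgka (-0.55, adjusted p = 0.139), a diacylglycerol kinase, and Inpp5d (0.67, adjusted p = 0.155), the phosphatase SHIP1.

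The protein-coding genes most raised in ε/ε over γ1/γ1 were Rgs1, Cfp, Plk2, Ackr3, Ciart, Sik1, Fabp5, Cd36, Rps15, Smarcd1, Jhy and Ppp1r15a, by 1.62 to 2.45 on the log2 scale. Rgs1, which shuts off G protein signals from chemokine receptors, read 7.10, 5.34 and 5.26 in ε/ε and 3.10, 3.74 and 3.49 in γ1/γ1 (2.45, SE 0.42, adjusted p = 0.0160). Replicate 1 was the highest of its ε/ε arrays, and the call was lost without γ1/γ1 replicate 1 or 3. Cfp encodes properdin, the plasma protein that stabilises the alternative complement convertase. It read 7.49, 6.55 and 7.03 in ε/ε and 4.95, 5.17 and 3.61 in γ1/γ1, a 5.45-fold difference (2.45, SE 0.38, adjusted p = 0.0121). Plk2, a kinase of the polo family, read 6.22, 5.29 and 5.87 against 3.23, 3.92 and 3.3 (2.31, SE 0.27, adjusted p = 0.00402), so its γ1/γ1 level was at the array medians. Both Cfp and Plk2 held with every array left out.

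Ackr3, an atypical receptor that takes up the chemokine CXCL12, read 6.89, 6.97 and 6.40 in ε/ε, 5.04, 4.86 and 4.27 in γ1/γ1, and 4.28 to 4.65 in wild-type, a 4.08-fold difference between the isotypes (2.03, SE 0.23, adjusted p = 0.00360) that held with each array left out. Cd36, a scavenger receptor for lipids, read 6.44, 7.31 and 7.18 in ε/ε and 5.46, 5.44 and 4.76 in γ1/γ1 (1.76, SE 0.25, adjusted p = 0.00879). Its wild-type values of 6.04 to 6.24 lay between the mutants. Smarcd1, a subunit of the SWI/SNF chromatin remodelling complex, read 8.12, 7.09 and 7.98 against 5.92, 6.11 and 6.13 (1.67, SE 0.27, adjusted p = 0.0134) and lost its call without γ1/γ1 replicate 1. Its other probe set did not give the same result, averaging 4.82 in ε/ε and 4.98 in γ1/γ1 (-0.16, adjusted p = 0.751 over all probe sets).

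Several of the raised genes rest on fewer arrays. Ciart, a repressor in the circadian clock, read 6.27 to 6.63 in ε/ε and 3.47 to 5.06 in γ1/γ1 (1.96, adjusted p = 0.0222), a call lost when 1 of ε/ε replicates 1 and 3 or γ1/γ1 replicate 3 was left out. Sik1, a salt-inducible kinase, read 6.70, 6.77 and 7.65 against 4.41, 5.06 and 5.79 (1.96, adjusted p = 0.0171), lost without γ1/γ1 replicate 1 or 2. Fabp5, a fatty acid carrier, was highest in ε/ε replicate 1 at 7.38 (1.92, adjusted p = 0.0266) and lost its call without that array, without any γ1/γ1 array or without wild-type replicate 3. Adjusted over all probe sets, the p of this Fabp5 probe set was 0.0562. The other Fabp5 probe sets differed by 1.97, 0.70 and -0.01 (adjusted p = 0.0618, 0.215 and 0.974 over all probe sets). Jhy (1.65, adjusted p = 0.0480) lost its call without any single array other than ε/ε replicate 2. Its wild-type arrays, at 5.64 to 5.91, lay above all γ1/γ1 arrays, at 3.03 to 4.12. Rps15, a protein of the small ribosomal subunit, read 4.30 to 4.66 against 2.68 to 2.87 (1.73, adjusted p = 0.00169). Its probe set entered the test through the ε/ε arrays alone, since it lay below the array medians on the other 6. It was the only 1 of 60 cytosolic ribosomal protein genes to pass (1.67%, beside 2.66% of all genes).

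The protein-coding genes most reduced in ε/ε were Cldn34b3, Adam6b, Chil5, Dennd5b, Ms4a4c, Zfp873, Grap2, Bcl2, Crisp3, Cyp4a12b, Krtap4-13 and Tagap, by 1.71 to 3.32 on the log2 scale. Ms4a4c, a membrane protein of the family that includes CD20, read 6.35, 7.07 and 6.53 in ε/ε and 8.84, 8.78 and 8.93 in γ1/γ1, a 4.61-fold difference (-2.20, SE 0.19, adjusted p = 0.00151). Wild-type values were 8.90 to 9.22, next to γ1/γ1. Dennd5b, which belongs to the DENN domain family of Rab activators, read 3.89, 5.10 and 3.77 in ε/ε, 6.17, 6.83 and 6.45 in γ1/γ1 and 7.16 to 7.27 in wild-type (-2.23, SE 0.32, adjusted p = 0.00862). Both calls held with each array left out.

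Adam6b separated the 2 isotypes in another way, since here γ1/γ1 stood apart from wild-type as well. It read 2.87, 2.11 and 2.33 in ε/ε, 6.74, 4.54 and 4.90 in γ1/γ1, and 3.64, 3.19 and 3.24 in wild-type (ε/ε minus γ1/γ1 -2.95, SE 0.47, adjusted p = 0.0134). The gene lies inside the heavy chain locus on chromosome 12: in the mouse gene table its neighbours are the diversity segments Ighd1-1 and Ighd3-1. Its γ1/γ1 minus wild-type difference was 2.03 (SE 0.47) with an adjusted p of 0.379. The other gene of this kind in the locus, Adam6a, differed by -0.42 between the isotypes (SE 0.16, adjusted p = 0.183). The ε/ε and wild-type means of Adam6b were below the array medians.

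The remaining reduced genes include adaptors and regulators known in lymphocytes. Tagap, a GTPase-activating protein of T and B cells, read 5.23, 6.81 and 5.82 in ε/ε and 7.30, 7.82 and 7.86 in γ1/γ1 (-1.71, SE 0.34, adjusted p = 0.0308). Grap2, the adaptor GADS, read 4.18, 6.14 and 4.95 against 6.89 to 7.15 (-1.90, SE 0.39, adjusted p = 0.0354). Both lost their call without any single array other than ε/ε replicate 2, the ε/ε array nearest to γ1/γ1. Zfp873 (-2.08, adjusted p = 0.0212) lost its call without γ1/γ1 replicate 2 or 3, and Crisp3 (-1.79, adjusted p = 0.0437) without any 1 of the 9 arrays. Cldn34b3 (-3.32, adjusted p = 0.00489), Chil5 (-2.30, adjusted p = 0.00178), Cyp4a12b (-1.79, adjusted p = 0.00702) and Krtap4-13 (-1.71, adjusted p = 0.010) held. Cldn34b3 read 1.61 to 3.10 in ε/ε, below the array medians.

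**Figure D2:**
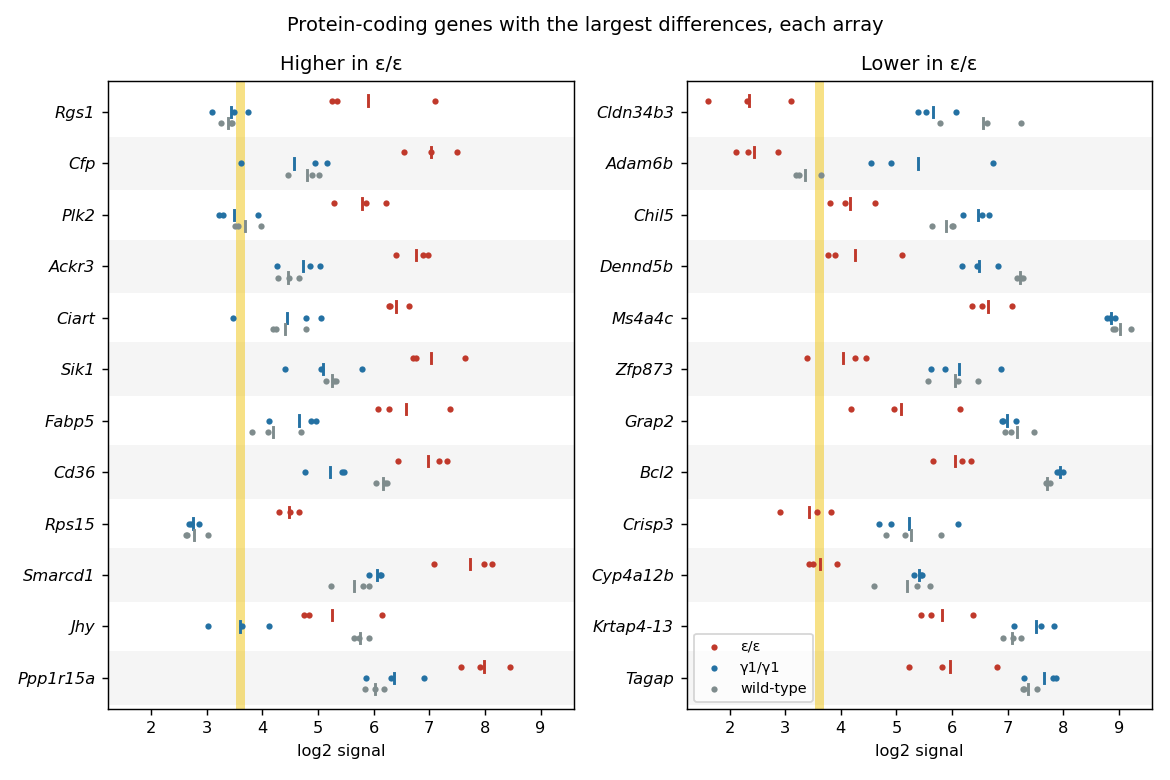
The dot plot of protein-coding genes gives the log2 signal (x axis) of the 12 genes most raised and the 12 most lowered in ε/ε, with a dot for each array, a short bar at each genotype's mean, and a yellow band at the range of the array medians, 3.53 to 3.69. The red ε/ε dots stand clear of the blue γ1/γ1 dots in every row, and the grey wild-type dots lie near the blue ones except for Cd36 (between), Jhy (with ε/ε) and Adam6b (nearer ε/ε).

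Bcl2, the anti-apoptotic protein on which naive B cell survival depends, was 3.66-fold lower in ε/ε. It read 5.66, 6.18 and 6.34 in ε/ε, 8.0, 7.92 and 7.88 in γ1/γ1, and 7.68, 7.70 and 7.76 in wild-type (-1.87, SE 0.18, adjusted p = 0.00169). The spread of the 6 γ1/γ1 and wild-type arrays was 0.32 in all, and every ε/ε array lay at least 1.34 below them. The call held with each array left out, in the fit of the 6 arrays and in the fit of the 7 arrays of high Xist. A second Bcl2 probe set moved the same way, from 5.05 to 5.53 in ε/ε against 5.95 to 6.24 in γ1/γ1 (-0.82, adjusted p = 0.0545 over all probe sets). Of 21 survival and apoptosis genes, 2 were lower and 0 higher (9.52%, beside 2.66% of all genes), with a median of -0.14. The other was Cflar, the inhibitor of caspase-8 known as c-FLIP, at 6.03 to 6.10 in ε/ε and 6.57 to 6.70 in γ1/γ1 (-0.55, SE 0.12, adjusted p = 0.0480), a call lost without any 1 of the 9 arrays. Mcl1, a related survival protein, gave -0.47 (SE 0.14, adjusted p = 0.0945). Cflar was also the only 1 of 27 genes of the NF-κB pathway to pass (3.7%).

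The marginal zone markers that passed were all higher in ε/ε and the follicular markers that passed all lower, while most members of both lists did not pass. Both lists were chosen with earlier results of these data known, so their shares are descriptions and not support. Of 27 marginal zone genes tested, 6 were higher in ε/ε and 0 lower (22.2%, beside 2.66% of all genes), with a median of 0.46. Their difference was positive in 20 of 27, beside 6081 of all 12170 genes. Of 24 follicular genes, 0 were higher and 4 lower (16.7%), with a median of -0.39 and a positive difference in 7. The medians on single ε/ε arrays, taken against the γ1/γ1 mean, were 0.46, 0.42 and 0.36 for the marginal zone genes and -0.25, -0.25 and -0.48 for the follicular genes. Without ε/ε replicate 1 the counts were 4 higher and 3 lower, with medians of 0.46 and -0.38. In the fit of the 6 arrays they fell to 1 and 1, and in the fit of the 7 arrays of high Xist to 3 and 1. They were 3 and 3 without γ1/γ1 replicate 2 or 3, and 8 and 5 under quantile normalization.

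The marginal zone genes that passed were Ackr3 and Cd36, given above, Hes1, Asb2, Cacna1e and Dtx1. Hes1 and Dtx1 are targets of Notch2, the receptor that directs marginal zone development. Hes1 read 6.22, 5.90 and 5.83 in ε/ε against 4.80, 5.06 and 4.89 in γ1/γ1 (1.06, SE 0.16, adjusted p = 0.0104) and held with each array left out. Dtx1 read 6.29, 6.48 and 6.39 against the same 5.67 on each γ1/γ1 array (0.72, SE 0.15, adjusted p = 0.0397), and its call was lost when any of 7 arrays was left out, the exceptions being wild-type replicates 1 and 2. Adjusted over all probe sets, the p of this probe set was 0.0529. The other Dtx1 probe set differed by 0.37 (adjusted p = 0.511 over all probe sets). Notch2 itself differed by 0.17 (SE 0.18, adjusted p = 0.638). Of 28 Notch pathway genes 2 passed (7.14%, beside 2.66% of all genes), both of them these targets. Cacna1e, a voltage-gated calcium channel subunit, differed in all 3 genotypes, at 6.77, 6.69 and 7.08 in ε/ε, 6.13, 5.83 and 5.65 in γ1/γ1, and 4.12 to 4.34 in wild-type (ε/ε minus γ1/γ1 0.98, SE 0.17, adjusted p = 0.0166). That call was lost without γ1/γ1 replicate 2 or 3. Asb2, a subunit of an E3 ubiquitin ligase, differed by 0.99 (adjusted p = 0.0352), entered the test through the ε/ε arrays alone and lost its call without any of 7 arrays.

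The surface markers by which marginal zone cells are usually sorted did not pass. The cells had already been sorted as follicular B cells, which may keep such markers alike, so nothing is read from these values. Cr2, the complement receptor CD21, differed by -0.20 (SE 0.12, adjusted p = 0.393), Cd1d1 by -0.26 (adjusted p = 0.339) and Cd9 by -0.10 (adjusted p = 0.816). Fcer2a, the IgE receptor CD23 that marks follicular cells, differed by -0.35 (SE 0.21, adjusted p = 0.371) reading 9.36 to 9.97 in ε/ε and 9.91 to 10.29 in γ1/γ1.

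The follicular genes that passed were Dennd5b, given above among the most reduced genes, Zfp318, Cd55 and Ccr6. Zfp318, the nuclear protein needed for the long transcripts that encode IgD, read 7.70, 7.79 and 6.97 in ε/ε, 9.08, 8.95 and 9.13 in γ1/γ1 and 9.42 to 9.54 in wild-type. The difference was -1.57 (SE 0.20, 2.96-fold, adjusted p = 0.00550). Cd55, which speeds the decay of complement convertases on the cell's own surface, read 7.36, 7.84 and 7.37 against 8.80, 8.43 and 8.71 (-1.12, SE 0.17, adjusted p = 0.0109). Both held with each array left out. Ccr6, the receptor for CCL20, read 6.41 to 6.98 against 7.51 to 8.03 (-1.04, SE 0.20, adjusted p = 0.0260) and lost its call without ε/ε replicate 1 or 3, any γ1/γ1 array or wild-type replicate 3. Cxcr5, which guides B cells into follicles, differed by 0.36 (adjusted p = 0.446) and S1pr1, which guides their exit, by 0.05 (adjusted p = 0.933).

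**Figure D3:**
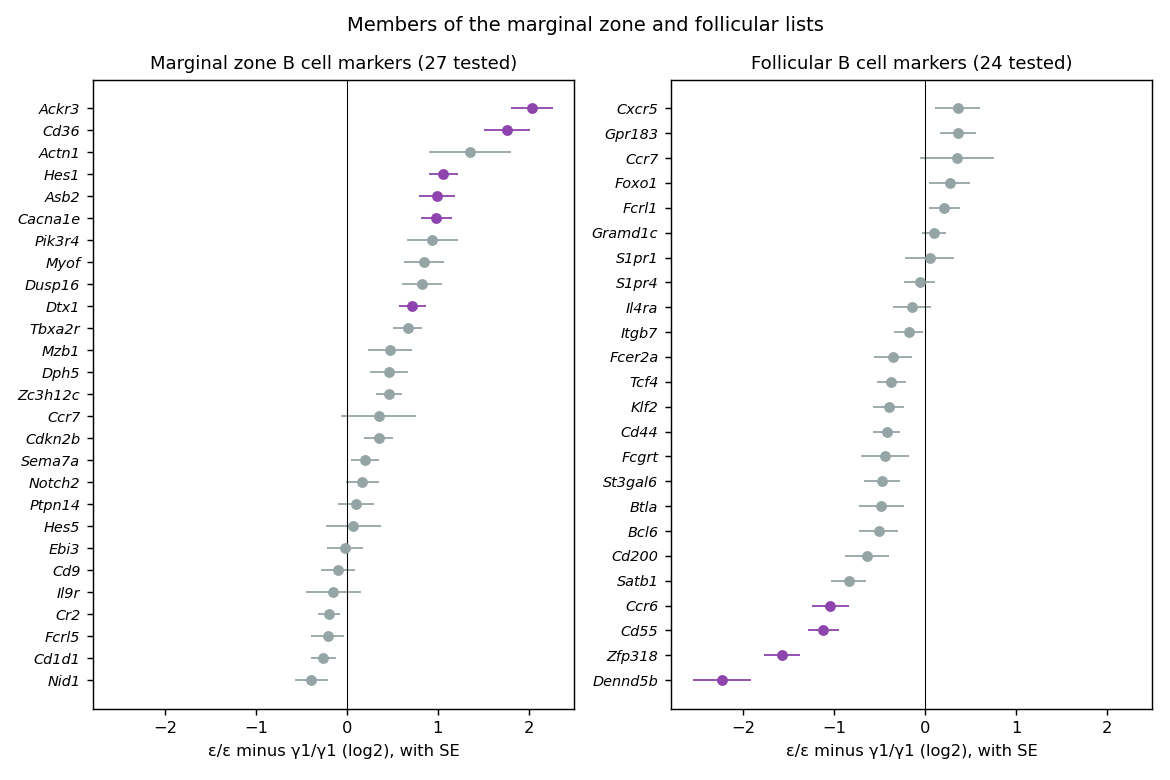
The plot of marginal zone and follicular markers gives each tested member's ε/ε minus γ1/γ1 difference in log2 units on the x axis with its SE as a bar, purple where the adjusted p was under 0.05 and grey otherwise. Of the 27 marginal zone genes the 6 that passed lie at 0.72 to 2.03, and of the 24 follicular genes the 4 that passed lie at -2.23 to -1.04. Ccr7 is a member of both lists.

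Single surface genes of other lists were lower in ε/ε. Fcmr, the Fc receptor for IgM, read 7.27, 8.01 and 7.5 in ε/ε, 8.83, 9.58 and 9.31 in γ1/γ1 and 9.19 to 9.66 in wild-type, a 3.13-fold difference (-1.65, SE 0.24, adjusted p = 0.00921) and the only 1 of 14 Fc receptor genes to pass. Tlr1, which with TLR2 senses bacterial lipopeptides, read 7.33, 8.28 and 7.66 against 9.21, 9.21 and 9.16 (-1.44, SE 0.22, adjusted p = 0.00990), the only 1 of 22 Toll-like receptor genes and partners. Both held with each array left out. Cd48, a ligand of the CD2 family (-0.93, SE 0.19, adjusted p = 0.0319), and P2ry10, a receptor for lysophosphatidylserine (-0.78, SE 0.14, adjusted p = 0.0177), were lower too. Cd48 was the only 1 of 22 activation and costimulation genes to pass. Of 25 genes of chemokine receptors and positioning 3 passed, Ackr3 higher and Ccr6 and P2ry10 lower. The shares of these lists were 4.55% and 12%, beside 2.66% of all genes. They were 7.14% for the Fc receptor list and 4.55% for the Toll-like receptor list. Cd48 lost its call without any of 6 arrays, and P2ry10 without ε/ε replicate 1 or γ1/γ1 replicate 2 or 3.

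Genes that finish sialic acids on surface glycans gave 2 lower and 0 higher of 17 (11.8%, beside 2.66% of all genes), with a median of 0.03. Cmah, the hydroxylase that makes N-glycolylneuraminic acid, the form of sialic acid preferred by mouse CD22, read 6.35, 7.13 and 7.01 in ε/ε, 7.98, 7.98 and 7.93 in γ1/γ1 and 8.78 to 8.94 in wild-type (-1.13, SE 0.19, adjusted p = 0.0166). Its call was lost without any 1 of the γ1/γ1 arrays. St8sia6, a sialyltransferase, was highest in γ1/γ1, at 6.85, 6.82 and 6.50, against 5.56, 5.94 and 5.70 in ε/ε and 5.01 to 5.37 in wild-type (ε/ε minus γ1/γ1 -0.99, SE 0.17, adjusted p = 0.0152), a call lost without γ1/γ1 replicate 1 or 2. The γ1/γ1 minus wild-type difference of St8sia6 was 1.53 (adjusted p = 0.0122).

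Il9r, the IL-9 receptor, overlapped between the isotypes. It read 8.52, 9.03 and 8.44 in ε/ε and 8.53, 8.88 and 9.03 in γ1/γ1, a difference of -0.15 (SE 0.30, adjusted p = 0.816), while wild-type arrays read 5.12 to 6.29. It is 1 of the 5 genes that passed between γ1/γ1 and wild-type, with Cacna1e, Ighm, St8sia6 and 4930597A21Rik.

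Immediate-early genes, which cells switch on within minutes of a receptor signal or of handling stress, had mostly positive differences in ε/ε. Of 36 tested, 4 were higher and 0 lower (11.1%, beside 2.66% of all genes), with a median of 0.46 and 30 positive differences, beside 6081 of 12170 over all genes. They were Rgs1, given above, Junb, Klf4 and Ier5l. Klf4, a transcription factor that restrains B cell proliferation, read 4.82, 4.55 and 4.82 in ε/ε against 3.81, 3.43 and 3.31 in γ1/γ1 (1.22, SE 0.17, adjusted p = 0.00707) and held with each array left out. Junb, an AP-1 subunit, read 7.51, 6.06 and 7.01 against 5.02, 5.44 and 5.58 (1.51, SE 0.34, adjusted p = 0.0489), and Ier5l differed by 0.84 (adjusted p = 0.0390). Each of these 2 lost its call without any single array other than ε/ε replicate 2. Fos (1.37, adjusted p = 0.118), Egr1 (1.07, adjusted p = 0.215) and Nr4a1 (0.25, adjusted p = 0.621) did not pass.

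The immediate-early differences were uneven over the ε/ε arrays. The list's median against the γ1/γ1 mean was 0.84 in ε/ε replicate 1, 0.26 in replicate 2 and 0.48 in replicate 3. Without replicate 1 it was 0.31, with 2 genes higher. The count was also 2 without γ1/γ1 replicate 2 or any wild-type array, 1 without γ1/γ1 replicate 1 or 3, and 6 without ε/ε replicate 2. It was 7 under quantile normalization and 1 in the fit of the 6 arrays. In the fit of the 7 arrays of high Xist it was 2, and the median fell to 0.21. Macrophage markers were also highest in ε/ε replicate 1 (6.97, against 4.72 and 4.04), and their part in the result was not tested. Of 23 macrophage genes tested, 1 passed (4.35%, beside 2.66% of all genes). This was Timd4, the phosphatidylserine receptor TIM-4 (0.89, adjusted p = 0.0332). It entered the test through the ε/ε arrays alone and lost its call when any array other than ε/ε replicate 3 was left out. The median of the macrophage list was 0.93, with 2.02, 0.60 and 0.17 on the 3 ε/ε arrays, and 0.46 without replicate 1. Without ε/ε replicate 3, 4 macrophage genes passed. Fewer cells of a type and less RNA per cell cannot be told apart in such bulk samples.

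Some chaperone genes were raised. Of 27 heat shock genes, 3 were higher and 0 lower (11.1%, beside 2.66% of all genes), with a median of 0.22, and 1 was higher without ε/ε replicate 1, γ1/γ1 replicate 1 or γ1/γ1 replicate 3. In the fit of the 7 arrays of high Xist 1 was higher and the median was 0.03. Stip1, the co-chaperone HOP that links HSP70 to HSP90, read 7.75, 7.0 and 7.35 in ε/ε against 5.68, 6.09 and 5.70 in γ1/γ1 (1.55, SE 0.20, 2.92-fold, adjusted p = 0.00532) and held with each array left out. Hsph1, the exchange factor HSP105, differed by 1.35 (SE 0.25, adjusted p = 0.0253) and lost its call without ε/ε replicate 1 or γ1/γ1 replicate 1 or 3. Hspb1, the small heat shock protein HSP27, differed by 1.15 (SE 0.23, adjusted p = 0.0302) and lost its call without any of 7 arrays. Its other probe set differed by 0.27 (adjusted p = 0.427 over all probe sets). The list's median on the single ε/ε arrays was 0.52, 0.18 and -0.01, so replicate 1 led here too.

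The unfolded protein response list was even over the arrays. Its median was 0.34 (0.32, 0.36 and 0.39 on the 3 ε/ε arrays), and 30 of 32 genes had a positive difference. Only Ppp1r15a passed (3.12%, beside 2.66% of all genes). Ppp1r15a, also called GADD34, recruits the phosphatase that restarts translation after stress. It read 8.45, 7.92 and 7.57 in ε/ε against 5.87, 6.90 and 6.31 in γ1/γ1 (1.62, SE 0.28, adjusted p = 0.0172), a call that was lost without ε/ε replicate 1 and without either of γ1/γ1 replicates 1 and 3. Xbp1 (0.95, adjusted p = 0.0825) and the chaperone Hspa5 (0.62, SE 0.19, adjusted p = 0.108) did not pass.

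**Figure D4:**
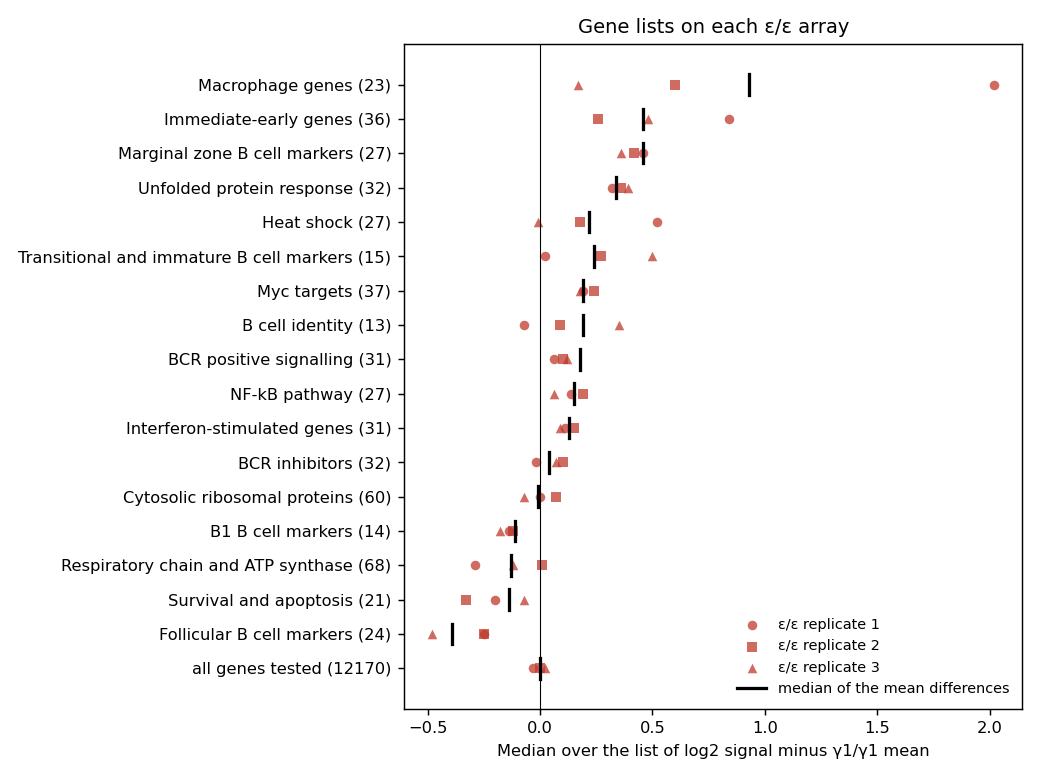
The plot of gene lists gives the median over each list's tested members (number in brackets) of the log2 signal of each ε/ε array minus the γ1/γ1 mean, with 1 symbol for each array, and as a black bar the median of the mean differences. Macrophage genes run from 0.17 to 2.02 and heat shock genes from -0.01 to 0.52 over the 3 arrays, while the unfolded protein response and marginal zone lists keep within 0.32 to 0.39 and 0.36 to 0.46.

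Plk2 and Ppp1r15a, both among the 12 most raised genes, carry the cAMP response element TGACGTCA just upstream of their start sites. Their promoters are shown because they hold this element, which was looked for in single genes chosen by hand. The stretches come from RefSeq promoter windows of the GRCm38.p6 build, which run from 250 bases before to 50 bases after the start. Capitals mark the element, which was searched on both strands and reads the same on each. The Plk2 stretch is chr13:110394922-110395029 on the plus strand, with the element beginning 62 bases before the start, and the Ppp1r15a stretch is chr7:45526269-45526340 on the minus strand, with the element beginning 12 bases before it.
Plk2: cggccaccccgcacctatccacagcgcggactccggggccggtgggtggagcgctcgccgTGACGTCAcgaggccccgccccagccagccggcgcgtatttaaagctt
Ppp1r15a: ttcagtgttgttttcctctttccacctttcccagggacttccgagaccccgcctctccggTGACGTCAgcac
The element was found in 1.79% of all 32851 promoter windows and in 3.44% of the 9498 tested genes that have 1. It was found in 2 of 83 raised genes with a window (2.41%) and in 6 of 147 lowered genes (4.08%), so it did not set the raised genes apart. Of the other genes looked at singly, Junb, Klf4, Ier5l and Cebpb have a window without it, and Sik1 and Rgs1 have no window. A match is a description of the letters and not a site.

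MicroRNA genes made up 29 of the 324 genes. Of 478 with a probe set 163 were tested, and of these 11 were higher and 18 lower in ε/ε (17.8%, beside 2.66% of all genes). 2 of the 29, Mir466n and Mir669h, entered the test through the ε/ε arrays alone. MicroRNAs are short RNAs that repress messenger RNAs paired to their seed, bases 2 to 8. A value here belongs to the probe set of the gene, and mature microRNAs were not measured apart from their precursors. With each array left out 15 of the 29 held, and 13 passed in the fit of the 6 arrays. Mir16-2, Mir9-1, Mir5104 and Mir467e were among those that lost their call, each without any of at least 6 arrays. RefSeq gives mature sequences for 17 of the 29. Those of some named members are given from the GRCm38.p6 build, with the seed in capitals. The genes of miR-107-3p and let-7g-5p did not pass, and these 2 are shown as relatives of the same seed.
miR-505-3p: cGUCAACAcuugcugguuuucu
miR-103-3p: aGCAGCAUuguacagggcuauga
miR-107-3p: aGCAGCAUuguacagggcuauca
miR-15a-5p: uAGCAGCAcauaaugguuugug
miR-16-5p: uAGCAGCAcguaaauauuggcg
miR-210-3p: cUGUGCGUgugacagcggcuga
miR-9-5p: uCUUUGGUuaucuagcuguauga
let-7a-5p: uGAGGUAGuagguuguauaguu
let-7g-5p: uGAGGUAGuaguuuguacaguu

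Mir505 gave the largest difference of any gene tested. It read 2.24, 3.35 and 3.11 in ε/ε, 7.51, 7.88 and 7.39 in γ1/γ1 and 7.32, 7.70 and 7.65 in wild-type (-4.70, SE 0.27, adjusted p = 6.92e-05). All 3 ε/ε arrays were below the array medians while the other 6 arrays lay within 0.56 of each other, so no fold is given.

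Mir15a and the second gene of miR-16, Mir16-2, share the seed AGCAGCA, lie on different chromosomes and were both lower in ε/ε. They are known as repressors of Bcl2. Mir15a averaged 4.05 ± 0.23 (SD, n = 3) in ε/ε and 6.16 ± 0.60 in γ1/γ1 (-2.11, SE 0.31, adjusted p = 0.00879), and Mir16-2 averaged 3.41 ± 0.30 and 4.31 ± 0.24 (-0.90, SE 0.18, adjusted p = 0.0344). The ε/ε mean of Mir16-2 was below the array medians. Its wild-type mean was 3.84, and ε/ε minus wild-type was -0.43 (adjusted p = 0.183). The messenger RNA of Bcl2 was lower in the same cells, as given above. The hosts did not pass: Dleu2, around Mir15a at chr14:61632075-61632096, differed by -0.75 (SE 0.24, adjusted p = 0.125), and Smc4, around Mir16-2 at chr3:69009918-69009939, by -0.43 (SE 0.16, adjusted p = 0.169).

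Other seed relatives did not share a call. Mir103-2 read 6.47, 7.25 and 4.94 in ε/ε against 8.60, 8.93 and 8.80 in γ1/γ1 (-2.56, SE 0.47, adjusted p = 0.0222), and lost its call without ε/ε replicate 1 or any γ1/γ1 array, while Mir107, with the same seed, differed by 0.31 (adjusted p = 0.685). Mir9-1 was lower (-1.62, SE 0.36, adjusted p = 0.0480), while Mir9-3, which encodes the identical miR-9-5p, differed by 0.62 (adjusted p = 0.310). Mirlet7a-1 was higher, at 4.93 ± 0.28 against 3.58 ± 0.15 (1.34, SE 0.20, adjusted p = 0.00990), while Mirlet7g, of the same seed, differed by -0.09 (adjusted p = 0.922) and Mir98, also of that seed, by -1.18 (adjusted p = 0.213). Mirlet7g averaged 3.34 in ε/ε and 3.43 in γ1/γ1, both below the array medians, where a difference may not be seen. Mir98 averaged 2.64 and 3.83. Mir210, a microRNA known for its induction by low oxygen, averaged 5.68 ± 0.25 against 7.65 ± 0.36 (-1.97, SE 0.22, adjusted p = 0.00360).

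Host genes were set beside the microRNA genes inside them. Mir3093 and Mir9-1 both lie in Gm3764, and Mir3093 was higher by 2.21 (SE 0.29, adjusted p = 0.00583) where Mir9-1 was lower. Of the 26 microRNA genes that lie inside another gene, 8 have a tested host. The host of Mir1927 (-2.59, SE 0.38, adjusted p = 0.00879), Rabgap1l, was lower with it (-0.77, SE 0.17, adjusted p = 0.0421, lost without any of 8 arrays), and the hosts of the other 7 did not pass, with differences of -0.75 to 0.54. Mir5104 read 4.41 ± 0.52 against 6.81 ± 1.09 (-2.40, SE 0.47, adjusted p = 0.0303) within Zc3h12d, which gave -0.40 (adjusted p = 0.241).

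The intron cluster of Sfmbt2, a rodent array of repeated microRNA genes, held 10 of the 29. Of its 22 genes with a probe set 12 were tested, 7 were higher and 3 lower. The host gene Sfmbt2 was not among the genes tested. Its probe set read 2.70 to 2.88 over all 9 arrays, below every array median, where a difference may not be seen. The host's ε/ε minus γ1/γ1 difference was -0.04 (SE 0.10, adjusted p = 0.882 over all probe sets). Whether the microRNA signals follow transcription of the host was not tested. Mir466h read 10.74, 10.76 and 11.02 in ε/ε against 7.72, 8.30 and 7.86 in γ1/γ1 and 7.49 to 7.67 in wild-type (2.88, SE 0.17, 7.38-fold, adjusted p = 6.92e-05). Mir466b-2 read 8.69, 6.46 and 7.65 against 3.94, 3.12 and 4.28 (3.82, SE 0.48, adjusted p = 0.00489), and Mir297a-4 read 9.12, 7.31 and 8.65 against 4.93, 4.30 and 4.92 (3.64, SE 0.39, adjusted p = 0.00310). All 3 held with each array left out. Mir669a-3, Mir669m-1, Mir669h and Mir466n were higher by 1.99 to 2.75. Mir467c (-1.98, SE 0.23, adjusted p = 0.00443), Mir467e (-1.69, SE 0.34, adjusted p = 0.0323) and Mir297b (-1.14, SE 0.18, adjusted p = 0.0114) were lower, so Mir297a-4 and Mir297b ran opposite ways. These genes have near-identical copies, and signals of 1 copy may come from another: of the 7 probe sets of Mir466b-2, 6 held identical values. Outside the cluster 4 of 151 microRNA genes were higher and 15 lower.

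**Figure D5:**
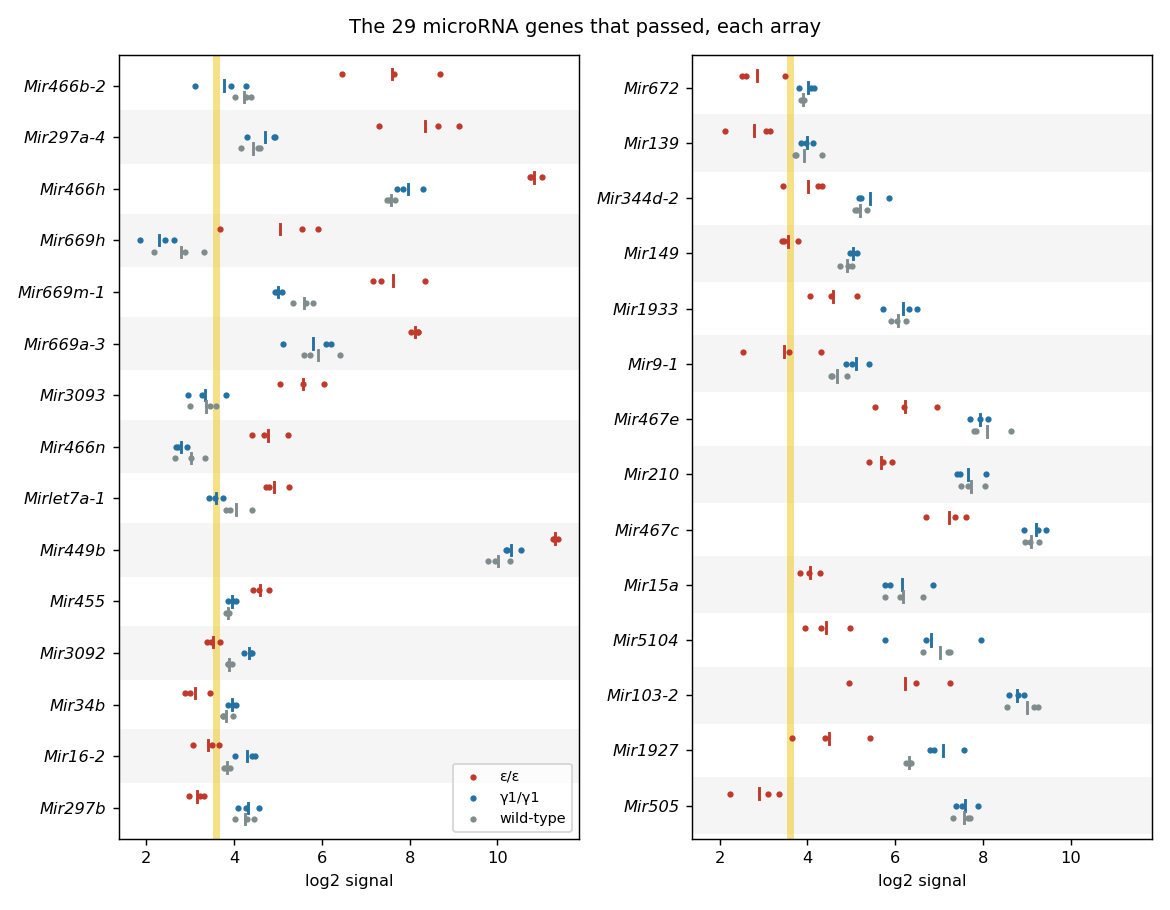
The dot plot of microRNA genes gives the log2 signal (x axis) of all 29 that passed, ordered from the most raised to the most lowered in ε/ε, with a dot for each array, a short bar at each genotype's mean and a yellow band at the range of the array medians, 3.53 to 3.69. The first 3 rows, Mir466b-2, Mir297a-4 and Mir466h, show ε/ε arrays 2.88 to 3.82 higher on average, and the last row, Mir505, shows them 4.70 lower.

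Olfactory receptor genes, which B cells are not known to use, were also among the 324. Of 1105 with a probe set 119 were tested, and 6 were higher and 11 lower in ε/ε (14.3%, beside 2.66% of all genes). Olfr310 read 9.87, 8.33 and 8.64 in ε/ε against 5.69, 4.31 and 5.35 in γ1/γ1 and 3.99 to 5.30 in wild-type (3.83, SE 0.48, 14.2-fold, adjusted p = 0.00489). Olfr1219 read 3.28, 2.83 and 3.26 against 6.55, 5.24 and 5.6 (-2.67, SE 0.29, adjusted p = 0.00310), Olfr875 gave -2.62 (SE 0.36, adjusted p = 0.00702) and Olfr259 -1.92 (SE 0.17, adjusted p = 0.00151). These 4 calls held with each array left out, and the ε/ε means of the last 3 were below the array medians. Olfr316 and Olfr988 entered the test through 1 genotype alone.

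Small nucleolar RNA genes, guides of ribosomal RNA modification, gave 1 higher and 2 lower of 60 (5%, beside 2.66% of all genes), with a median of -0.31. Snora44 averaged 8.44 ± 0.32 in ε/ε and 7.04 ± 0.23 in γ1/γ1 (1.40, SE 0.22, adjusted p = 0.0121). Snord17 averaged 8.96 ± 0.07 and 9.82 ± 0.13 (-0.87, SE 0.14, adjusted p = 0.0121), and Snora23 gave -1.0 (SE 0.20, adjusted p = 0.0308), the last lost without any γ1/γ1 or any wild-type array.

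Many programmes of B cells gave no gene that passed. These were the BAFF, CD40 and TRAF genes (14 tested, median 0.04), PI3K, AKT and FOXO genes (32, 0.05), cytokine receptors (29, -0.05), transitional B cell markers (15, 0.24), germinal centre genes (11, 0.01), plasma cell genes (14, 0.16) and B1 cell markers (14, -0.11). The same held for glycolysis (16, 0.15), the respiratory chain (68, -0.13), the proteasome (38, -0.03), Myc targets (37, 0.19), the cell cycle (34, 0.00), interferon-stimulated genes (31, 0.13) and antigen presentation by MHC class I (21, 0.05) and class II (18, 0.04). At the 2.66% of all genes that passed, few or no calls would fall in lists of these sizes, so nothing is read from the 0 counts. The nearest to the threshold in these lists were Akt1 (0.63, adjusted p = 0.0504) and Jak2 (-0.77, adjusted p = 0.0550). Of 39 B lineage transcription factors 1 passed (2.56%). This was Runx3, at 5.41 to 5.70 in ε/ε, 4.76 to 5.01 in γ1/γ1 and 4.33 to 4.46 in wild-type (0.67, SE 0.14, adjusted p = 0.0344). Its call was lost without any array other than ε/ε replicate 3. Cstf3, a subunit of the complex that cleaves messenger RNA ends, was the only gene beside Zfp318 to pass among 17 for IgM and IgD RNA processing (-0.75, SE 0.16, adjusted p = 0.0428). It lost its call without any array other than ε/ε replicate 1. The 2 genes are 11.8% of that list, beside 2.66% of all genes.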

How the data were processed

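Transcript levels were measured on 9 single-colour arrays, 3 for each genotype. Between 54 and 360 ng of Trizol-extracted total RNA was amplified for each, per the labels' protocols. The deposited table holds log2 values of 41345 probe sets, processed by the authors in R 3.3.1 per the submitters' processing notes. How they were background-corrected and normalized is not given in the sources used here. Their log2 scale was inferred from the values. No detection call accompanies them, and the number of arrays limits the precision.

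A gene was taken from probe sets with 1 symbol in the platform annotation (23521 probe sets, 22180 genes), by the brightest mean over 9 arrays. Genes above the array median on at least 3 arrays were tested (12170 genes). All 9 arrays were fitted with limma 3.58.1 in R 4.3.3, 1 mean for each genotype and eBayes, and p-values were adjusted by Benjamini-Hochberg over the genes tested. Every adjusted p in the text is from limma. Differences are ε/ε minus γ1/γ1 in log2 units, and a call means an adjusted p under 0.05. A call is said to hold with each array left out when it passed in all 9 such fits.

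The 12 highest and 12 lowest protein-coding genes, the 5 highest and 5 lowest of other kinds, Ighm, Cd79a, Cd79b, Xist and, for each of 51 lists, up to 4 members that passed, or else the 2 of smallest p, were eligible for naming. Genes outside this rule (Ighg3, Adam6a, Il9r, Cebpb, hosts and seed relatives of microRNAs, other microRNA and olfactory receptor genes that passed, list members that did not pass and the genes named for their wild-type position) were chosen after their values were seen. The comparison, its members and its lists were chosen with earlier results of these data known. The lists are described by counts and medians without a test. Gene kinds, hosts, promoters and mature microRNAs come from RefSeq tables of GRCm38.p6. Scripts were tested on simulated data. Figures were drawn with matplotlib 3.10.9.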

Additional observations from a re-analysis of the deposited data

Results flagged for a closer look

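A signal also appeared in probe sets that the comparison leaves out. Of the 17824 probe sets without a gene symbol or with several, 510 differed between ε/ε and γ1/γ1 at an adjusted p under 0.05 (limma over all 41345 probe sets), 152 higher and 358 lower in ε/ε. Over all probe sets, named and unnamed, 745 passed. The unnamed ones have no gene here and were not analysed further.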

How the results depend on the processing

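The count of 324 genes became 56 with only the 6 arrays compared, 513 with a covariate for low Xist, 88 with the 7 arrays of high Xist, 803 at an adjusted p under 0.1, 67 under 0.01 and 173 with a difference of at least 2-fold. Leaving out an array gave 122 to 330. It stayed within 1.5 times under quantile normalization, centring, array weights, a robust variance with a trend, a filter at percentile 75 or none, averaged probe sets, and protein-coding genes alone (233 to 394). With the replicate number as a block (replicate block) 237 passed, and 25 with the block and the 6 arrays. No pairing by number is named. The correlations of same-numbered deviations were small, at 0.046, 0.156 and 0.047, although each sample correlated best with its own number. Low Xist was also shared by replicate 1 of both mutants. Whether samples of the same number share a batch was not tested. Of the 63 genes eligible by the naming rule that passed, 32 passed with every array left out, 19 in the fit of the 6 arrays and 26 in the fit of 7. Of all 324 calls, 87, 56 and 71 did so, and of the 29 microRNA genes 15, 13 and 16. The direction of the 63 was the same in every fit except for Ighm, which was -0.27 with the mean of its probe sets (adjusted p = 0.392), the cause being its probe sets of opposite order. The sources of the other changes were not tested. Of the 324, 68 have a group mean under 3.69, the highest array median, where background limits the difference that can be seen, and 20 entered the test through 1 genotype alone. Exactly equal values on at least 2 arrays occur in 51.9% of the genes tested, as on the 3 γ1/γ1 arrays for Dtx1.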
